A study of Mus musculus with 62 samples.

Results

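N6-methyladenosine (m6A) peaks were measured by m6A-seq in mouse heart, and the peaks described here belong to genes that carried 5 or more peaks in the table, with Ttn left out. The rule counted peaks per gene symbol and used no measured level directly. Peaks are called from reads, however, so the number of peaks of a gene is not independent of its level. It gave 439 peaks in 61 genes, out of 3181 peaks and 1911 gene symbols. Overlap with the coding exons of GENCODE M21 gave the same 61 genes. Ttn, which encodes titin, held another 119 peaks.

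The libraries came from the hearts of 3 Rpl3l+/+ (WT 1 to WT 3) and 3 Rpl3l-/- (KO 1 to KO 3) mice. Rpl3l encodes a ribosomal protein of heart and skeletal muscle that is a paralog of the widely expressed Rpl3. The Rpl3l-/- mice carry a CRISPR-Cas9 deletion of exon 2 that shifts the reading frame in every cell of the body, on a C57BL/6J background, and the controls carry no engineered allele. The age of the mice used for m6A-seq was not given in the sources used here. RNA-seq of the hearts of 4 mice per genotype at 10 weeks of age was used for the transcript levels of the same genes.

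m6A is a methyl mark on internal adenosines of mRNA. It is laid down by a writer complex around METTL3 and METTL14, removed by the demethylases FTO and ALKBH5, and bound by readers such as the YTH-domain proteins. In many tissues it is enriched near stop codons and in long internal exons, within a short consensus written in words as A, G or T, then A or G, then A, C, and A, C or T. In m6A-seq, RNA fragments are enriched with an antibody to m6A and sequenced, so the level of a peak depends on both the abundance of the transcript and its methylation. No input libraries were used here, and the contributions of abundance and methylation cannot be told apart from the peak counts alone.

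The exonic sequences of a few peaks are given first, read 5′ to 3′ from GENCODE M21 transcripts (GRCm38, the same assembly as the mm10 build of the peak coordinates) on the strand of the gene. Capitals mark matches to the consensus pentamer. The peak of Wnk1 is shown because its p-value between the genotypes was among the smallest, and that of Alpk3 because it held most of the reads of its gene.
Wnk1, chr6:119992494-119992520, minus strand: agaagctggtgtcggcaaatccttaaa
Alpk3, chr7:81092433-81092442, plus strand: ttgTGACAca

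The peaks of Myh6 and Myh7, which encode the α and β myosin heavy chains, are shown because their sequences recur in the paralog, the first in part (a run of 37 of 45 bases) and the others whole.
Myh6, chr14:54953405-54953449, minus strand: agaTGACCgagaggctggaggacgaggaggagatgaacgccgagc
Myh6, chr14:54944456-54944501, minus strand: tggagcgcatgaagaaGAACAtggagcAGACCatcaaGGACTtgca
Myh7, chr14:54983718-54983767, minus strand: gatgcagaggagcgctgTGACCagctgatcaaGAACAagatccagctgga

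The 6 peaks in exon 36 of Macf1 are shown as a run of neighbouring peaks within 1 long exon of 5331 bases.
Macf1, chr4:123472860-123472893, minus strand: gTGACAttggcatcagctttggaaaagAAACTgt
Macf1, chr4:123472769-123472812, minus strand: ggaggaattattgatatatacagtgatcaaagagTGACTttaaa
Macf1, chr4:123472674-123472720, minus strand: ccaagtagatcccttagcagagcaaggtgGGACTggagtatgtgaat
Macf1, chr4:123472621-123472664, minus strand: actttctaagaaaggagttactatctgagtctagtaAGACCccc
Macf1, chr4:123472256-123472276, minus strand: aatggtttctcacgtaaagca
Macf1, chr4:123472208-123472246, minus strand: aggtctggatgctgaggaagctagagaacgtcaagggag

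The total number of reads over all peaks was 205499 to 660116 per library, and the peaks of the 61 genes took 28.4 to 32.6% of them. WT 1 stood apart. Its Pearson correlation with the other libraries on log2 CPM (reads over a peak scaled to the total of the library) over peaks was 0.824 to 0.882, and the chi-square per degree of freedom of its pairs was 12.9 and 17.3, against 2.30 to 3.73 for the other pairs within a genotype. Results that moved most without WT 1 are given with and without it. The levels of cell type markers were scaled to library totals alone, without TMM factors. Of 8 cardiomyocyte markers, 7 had a peak, and their summed level was 344198 to 361432 CPM in Rpl3l+/+ and 359206 to 388225 in Rpl3l-/- hearts. None of the 5 fat or 5 airway markers had a peak. The single blood marker with a peak, Hbb-bs, ranged from 7.57 to 141 CPM in Rpl3l+/+ and from 62.6 to 277 in Rpl3l-/- hearts. The 1 skeletal muscle marker with a peak, Ckm, ranged from 101 to 329 and from 179 to 277. The part of other cells in the results was not tested.

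The genes with many peaks were long. Their coding sequences had a median length of 7389 bases and ranged from 1356 (Idh2, mitochondrial isocitrate dehydrogenase) to 26397 bases (Syne1, the nuclear envelope linker nesprin-1), against a median of 2535 bases for genes with 2 to 4 peaks and 1655 bases for genes with 1 peak. Per kilobase of coding sequence they had a median of 0.891 peaks, beside 0.917 for the genes with 2 to 4 peaks and 0.604 for the genes with 1 peak. The groups were defined by the number of peaks, so for genes with 1 peak this density is set by coding length alone. The density was highest in Idh2, at 3.69 peaks per kilobase.

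The genes at the top of the list were large muscle and cytoskeletal genes. Ryr2, the calcium-release channel of the sarcoplasmic reticulum, had 23 peaks in 22 of its 105 exons. Macf1 and Dst, which encode giant linkers of actin and microtubules, had 22 and 18 peaks. Syne1, Utrn (utrophin) and Sptbn1 (a non-erythroid β-spectrin) had 11 peaks each, and Pde4dip (myomegalin) had 10.

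In some genes the peaks were gathered in a very long exon. All 7 peaks of Ahnak lay in an exon of 17498 bases, all 6 of Setd2, a histone H3 lysine 36 methyltransferase, in an exon of 4286 bases, and all 5 of Ankrd11, a chromatin regulator, in an exon of 6518 bases. In Cmya5, which encodes the muscle protein myospryn, 8 of 9 peaks lay in an exon of 9310 bases. In 30 of the 61 genes, at least 1 pair of neighbouring peaks was separated by 100 bases or less, with 50 such gaps in all. Joining these neighbours left 389 regions.

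The peaks were short, with a median of 40 bases and a range of 10 to 104 bases. Of the 436 peaks that overlapped an exon of the reference transcript, 237 (54.4%) lay wholly within it. Another 190 (43.6%) ran over the 5′ edge of the exon into the intron before it, and 8 (1.83%) over the 3′ edge only. The genes with 1 peak gave 52.2, 44.7 and 2.97%, so crossing of the 5′ edge was not particular to genes with many peaks. Of the peaks that crossed the 5′ edge, a median of 40.2% of the bases were exonic.

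With first exons left out, the midpoint of 244 of 433 peaks (56.4%) lay within 50 bases of the 5′ edge of the exon, against 65.5% for genes with 1 peak. The share differed between strands of the genome. It was 63.7% for 325 peaks of genes on the minus strand and 34.3% for 108 peaks of genes on the plus strand. For genes with 2 to 4 peaks it was 63.6 and 50.9%, and for genes with 1 peak 67.5 and 63.0%. Genes on the minus strand made up 44 of the 61 genes and carried 75.2% of the peaks with an exon. In genes with 2 to 4 peaks they carried 66.4%, and in genes with 1 peak 55.0%.

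**Figure D1:**
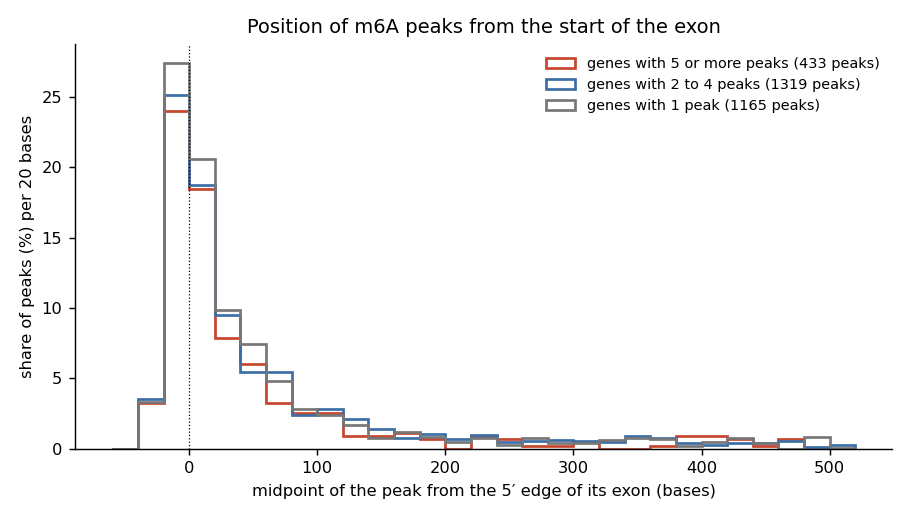
Share of peaks (y axis, % per 20 bases) by the distance of the peak's midpoint from the 5′ edge of its exon (x axis, bases, in the direction of the transcript), for genes with 5 or more peaks (red), with 2 to 4 (blue) and with 1 (grey), first exons left out. The 3 lines have their highest point next to the edge; 96 of 433 peaks of genes with 5 or more peaks lay beyond the end of the axis at 520 bases.

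Along the coding sequence the peaks were spread evenly. With the coding sequence divided into 5 equal parts, those from the start to the stop codon held 20.2, 23.2, 19.0, 20.2 and 17.4% of the peaks. The last coding exon held 36 peaks (8.26%), against 15.1% for genes with 2 to 4 peaks and 26.6% for genes with 1 peak. The last exon may be a smaller part of these longer coding sequences, and no expected share was computed. Only peaks on coding regions were counted, so 3′ untranslated regions cannot be read. Exons of 400 bases or more held 38.3% of the peaks, against 35.4% in genes with 1 peak.

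The consensus pentamer was found in 121 of the 237 peaks within an exon (51.1%). Over all windows of the same length in the coding sequences of the same transcripts, on the transcribed strand, the mean share was 50.6%. GGAC was found in 14.8% of these peaks and 12.9% of such windows, and GGACT in 4.64 and 2.62%, with GGACT matches also counted among those of GGAC. These are descriptions of letters within the peaks, and a methylated base beside a short peak would not be counted. With no input libraries, whether the antibody enriched methylated RNA at these peaks cannot be judged here. For genes with 1 peak, the pentamer was in 43.6% of peaks within an exon and 44.5% of windows.

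The peaks of genes with many peaks had high levels, but the number of peaks called in a gene is not independent of its reads. Here a level is the deposited TPM, that is reads per base of peak scaled to the library. The median level over the 439 peaks was 93.1, 96.7 and 95.4 TPM in WT 1, WT 2 and WT 3 and 92.9, 97.1 and 91.1 TPM in KO 1, KO 2 and KO 3. In genes with 2 to 4 peaks the median was 60.9 to 65.8 TPM, in genes with 1 peak 38.0 to 44.2 TPM and in Ttn 359 to 586 TPM over the 6 libraries. The order of these groups was the same in every library. Peaks of 1 gene share its transcript level, and within the genes with 5 or more peaks Syne1, with 11 peaks, had a median of only 21.7 TPM. At the edge of the rule, the 59 genes with 4 peaks had a median level of 63.7 TPM and the 26 genes with 5 peaks 106 TPM.

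Peaks within an exon were higher than those that crossed its 5′ edge, at a median of 117 and 70.8 TPM. The order held in each library, with 106 to 119 TPM within exons and 57.2 to 79.7 TPM across the edge. In genes with 2 to 4 peaks the medians were 68.9 and 60.5 TPM, and in genes with 1 peak 47.0 and 39.0 TPM. In genes with 5 or more peaks the median lengths were 36 bases within exons and 43 across the edge. TPM divides by the whole length of a peak, intronic bases included, and the part of this in the difference was not tested.

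The highest single peaks were those of contractile genes and of calcium handling. Median levels per gene were highest in Myh6, Atp2a2 and Myh7, at 11143, 1186 and 1088 TPM. Not all genes of these kinds were high, with medians of 89.2 TPM in Ryr2 and 42.4 TPM in Myh11, below 675 TPM in Taf15. In Myh6, the peak at chr14:54953405-54953449 reached a mean of 22904 TPM and the lowest of its 9 peaks 629 TPM. In Atp2a2, which encodes the SERCA2 calcium pump, the 7 peaks ranged from 328 to 11297 TPM. Ryr2 had peaks from 13.6 to 5040 TPM, a ratio of 371, with the highest level in a peak of only 12 bases. The peaks of Sptbn1 lay between 85.0 and 3188 TPM. Syne1 was the lowest of the genes with 10 or more peaks, at 3.75 to 62.8 TPM.

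The values of Myh6 and Myh7 are uncertain, because reads could map to more than 1 place and the paralogs are nearly identical. All 46 bases of the Myh6 peak at chr14:54944456-54944501 were found in the Myh7 transcript. All 50 bases of the Myh7 peak at chr14:54983718-54983767 were found in the Myh6 transcript, and this peak alone held a mean of 76.0% of the reads of Myh7. In contrast, the longest runs of the Myh7 peaks at chr14:54986475-54986503 and chr14:54986505-54986550 found in Myh6 were 11 and 14 bases. These peaks had mean levels of 328 and 291 TPM.

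**Figure D2:**
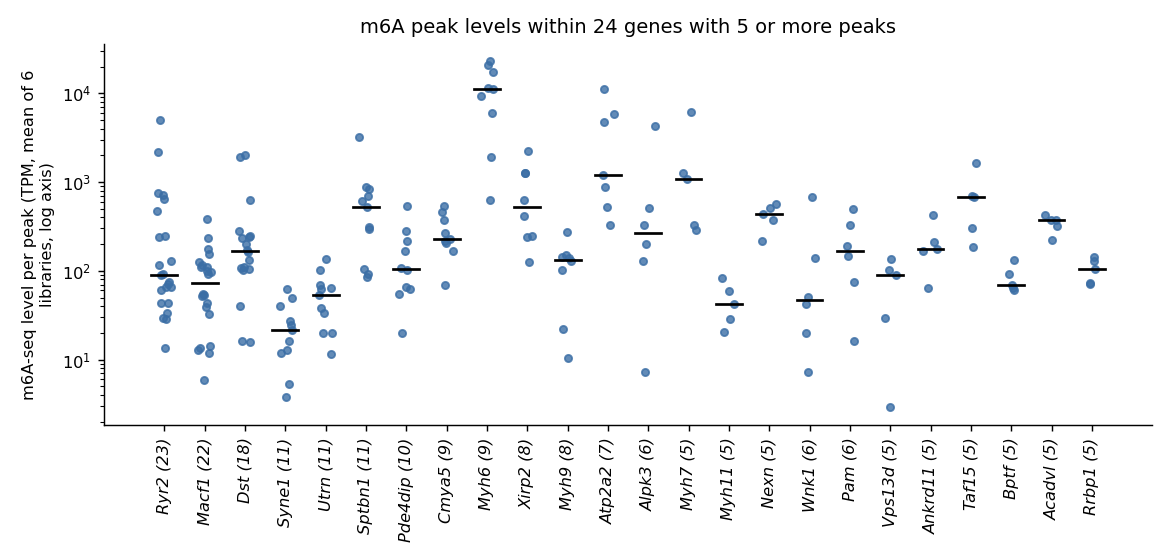
m6A-seq level of each peak (y axis, TPM, mean of 6 libraries, log axis) in 24 of the 61 genes (x axis, number of peaks in brackets). Points are peaks and black lines the median of the gene; Myh6 spans 629 to 22904 TPM, and Ryr2 13.6 to 5040 TPM.

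Levels differed widely between the peaks of the same gene. Over the 61 genes the median ratio of the highest to the lowest peak was 14.4, and differences between peaks of the same gene made up 43.4% of the variance of the mean log2(TPM + 1) over the 439 peaks. The highest peak held a median of 34.7% of the reads of its gene, and 50% or more in 7 genes, with 76.0% in Myh7. TPM divides by peak length, so length enters the ratio and the variance, and its part was not tested. The peaks with the highest TPM in Ryr2 and Ankrd11 had 12 and 14 bases. Those of Myh6 and Atp2a2 had 45 and 48 bases, beside a median of 40.

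This order of the peaks recurred between libraries. After each gene's mean was subtracted, Pearson's r of the levels across the 439 peaks was 0.816 to 0.916 over the 15 pairs of libraries, with no separation of the pairs with WT 1 (0.827 to 0.916). These correlations are across peaks, which share transcripts and lengths and are not replicates. The length of each peak, by which TPM divides, is the same in every library. In 30 of 61 genes the same peak was the highest in all 6 libraries, and in 33 genes when WT 1 was left out.

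The spread within a gene was taken as the standard deviation of log2(TPM + 1) across its peaks, averaged over the 6 libraries. The widest spreads were those of Alpk3 (3.00), which encodes a kinase of the sarcomere, Wnk1 (2.59), which encodes a kinase controlling ion cotransporters, and Vps13d (2.51), which encodes a lipid transfer protein. In Alpk3 a peak of 10 bases, chr7:81092433-81092442, held 54.5 to 63.6% of the reads of the gene, with 743, 432 and 302 reads in WT 1 to WT 3 and 413, 375 and 491 reads in KO 1 to KO 3, while another peak held 2 to 4 reads in each library.

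The narrowest spreads were those of Acadvl (0.397), the very long-chain acyl-CoA dehydrogenase of fatty acid oxidation, Bptf (0.517), a chromatin remodelling factor, and Rrbp1 (0.567), a ribosome-binding protein of the endoplasmic reticulum. The 5 peaks of Acadvl lay between 220 and 425 TPM. Of these, 3 also carry the symbol of Dvl2. The Rrbp1 peaks at chr2:143988977-143989080 and chr2:143989283-143989322 share an exact run of 23 bases. Reads could map to more than 1 place, so the levels of these peaks may not be separate.

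The question of the genotype comparison was whether m6A differed between hearts with and without Rpl3l. It was first asked of the spread. The median spread over the 61 genes was 1.76, 1.60 and 1.38 in WT 1, WT 2 and WT 3 and 1.37, 1.42 and 1.25 in KO 1, KO 2 and KO 3. The lowest WT library lay within the range of the KO libraries. The mean was 1.58 ± 0.189 in Rpl3l+/+ and 1.35 ± 0.0852 in Rpl3l-/- hearts (SD, n = 3), a difference of -0.23, and the 2-sided exact permutation test gave p = 0.2, where 0.1 is the smallest value that this design allows. Without WT 1 the difference was -0.14. Of the 439 peaks, 8, 10 and 14 had no read in WT 1 to WT 3 and 4, 4 and 1 in KO 1 to KO 3, so the WT libraries had more such peaks than the KO libraries, while among the WT libraries WT 1 had the fewest and the widest spread. With the 40 genes that had 5 or more peaks of a mean count of at least 10, the difference was -0.14.

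**Figure D3:**
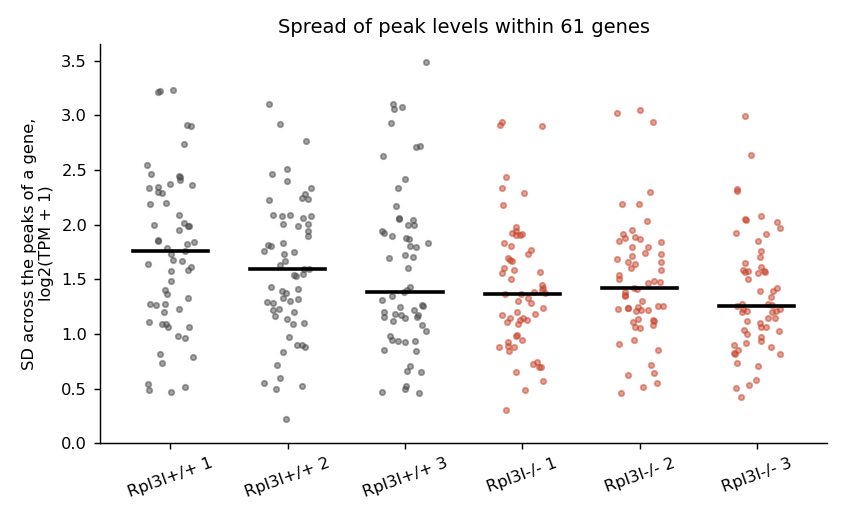
Spread of peak levels within each of the 61 genes (y axis, SD across peaks of log2(TPM + 1)) in the 6 libraries (x axis). Points are genes and black lines the medians, from 1.38 to 1.76 in Rpl3l+/+ (grey) and 1.25 to 1.42 in Rpl3l-/- hearts (red).

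Reads per peak were then compared with edgeR's quasi-likelihood test over all 2338 peaks with a mean count of at least 10, which left 361 of the 439 peaks, while 78 were not tested. Of the 439 peaks, 25 had no read in at least 1 library, and 8 had no more than 3 reads in any. No peak passed an adjusted p (Benjamini-Hochberg) of 0.05, neither among the 361 nor among all 2338 (0% called), and the smallest adjusted p was 0.514. At an unadjusted p under 0.05 there were 26 of the 361 peaks (7.2%), 17 higher and 9 lower in Rpl3l-/- hearts, against 9.45% of all peaks. This count was 81 of 365 without WT 3, 22 of 351 without WT 1, and 15, 14 and 11 without KO 1, KO 2 and KO 3. DESeq2 and limma on log2(TPM + 1) also called no peak, and each gave 22 of the 361 peaks at an unadjusted p under 0.05. On CPM with TMM factors, all 3 KO libraries lay above all 3 WT libraries in 35 of the 361 peaks (8.64% of all tested peaks). They lay below them in 20 (7.36% of all tested peaks). These counts depend on the scaling and were not taken by library totals.

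The median log2 fold change of the 361 peaks was 0.04, and that of all peaks was -0.02. Scaling by library totals instead of TMM (trimmed mean of M values) factors gave medians of -0.04 and -0.11, so the sign of the median depends on the scaling. The peaks of Wnk1 and Pam follow, which were among the 3 with the smallest p and did not pass the adjusted threshold.

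The peak of Wnk1 at chr6:119992494-119992520 in exon 3 of 28 had 7, 3 and 5 reads in WT 1 to WT 3 and 12, 19 and 29 reads in KO 1 to KO 3. The groups did not overlap, at 10.6 to 23.6 CPM and 36.0 to 72.7 CPM. The log2 fold change was 2.00 ± 0.491 (SE; edgeR, unadjusted p = 0.0016, adjusted p = 0.514), and 1.71 without WT 1.

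The peak of Pam, the enzyme that amidates secreted peptides, at chr1:97840475-97840517 in exon 20 of 26 had 40, 16 and 11 reads in WT 1 to WT 3 and 58, 34 and 55 reads in KO 1 to KO 3. Its levels of 52.0 to 60.7 CPM in Rpl3l+/+ lay below those of 105 to 174 CPM in Rpl3l-/- hearts, with a log2 fold change of 1.25 ± 0.327 (SE; edgeR, unadjusted p = 0.00296, adjusted p = 0.514). Only 14.0% of its bases are exonic.

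To separate a shift among the peaks of a gene from a change of the whole gene, the share of the gene's reads in each peak was tested (edgeR's diffSpliceDGE). No gene of 437 passed an adjusted p of 0.05 (0% called), nor did any of 1371 peaks (0% called). Of 60 of the 61 genes tested, 2 had an unadjusted p under 0.05, against 8 of all 437. Without WT 3 this was 6 of the 60 genes, and without KO 3 it was 0.

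In Wnk1 the peak in exon 3 held 1.11, 1.15 and 3.11% of the reads in WT 1 to WT 3 and 3.44, 5.52 and 6.36% in KO 1 to KO 3 (unadjusted p = 0.00542, adjusted p = 0.999). With 1 library left out the unadjusted p was 0.00236 to 0.972, with 0.0709 without WT 1 and 0.972 without KO 3. The peak with most reads of Wnk1, in exon 7, held 63.4 to 70.0% and 59.9 to 66.8%, with overlap of the groups. In Usp9x, a deubiquitinase, the peak with most reads held 70.1, 61.7 and 65.2% in WT 1 to WT 3 and 54.4, 53.8 and 40.2% in KO 1 to KO 3, without overlap, and the gene-level p was 0.0688 (adjusted p = 0.999), or 0.0393 (without WT 2) to 0.364 (without KO 3) with 1 library left out. With neighbouring peaks within 100 bases joined, no gene was called either.

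**Figure D4:**
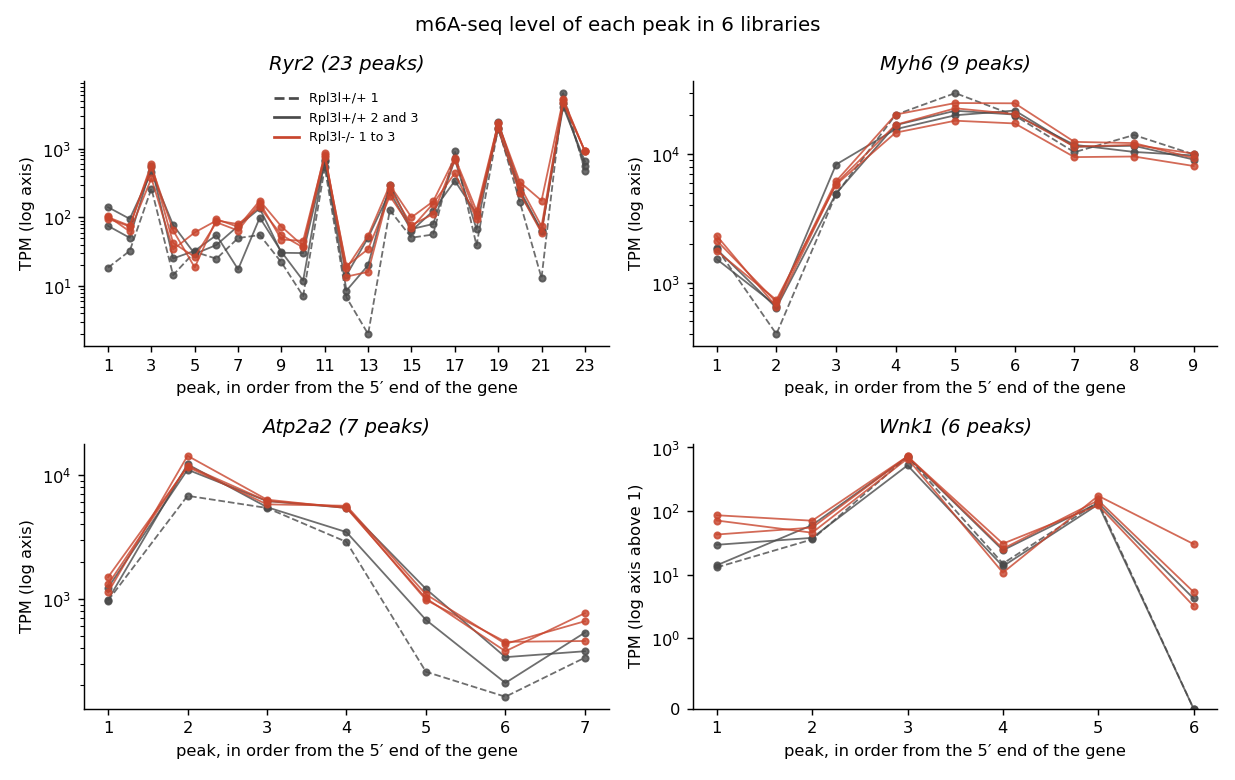
Level of each peak (y axis, TPM, log axis, linear under 1 TPM in Wnk1) in order from the 5′ end of the gene (x axis) for Ryr2, Myh6, Atp2a2 and Wnk1, with a line for each library, Rpl3l+/+ in grey (WT 1 dashed) and Rpl3l-/- in red. The lines run close together in most peaks, with WT 1 lowest in several of Ryr2 and Atp2a2, and the rightmost peak of Wnk1 is at 0 in WT 1 and WT 3. The leftmost peak of Wnk1 is the one with 3 to 7 reads in Rpl3l+/+ and 12 to 29 in Rpl3l-/- hearts.

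Reads summed per gene were compared over 1459 genes, including all 61. No gene passed an adjusted p of 0.05 in edgeR's test (0% called), in DESeq2 or in limma. An unadjusted p under 0.05 was given to 1 of the 61 genes by edgeR, 2 by DESeq2 and 3 by limma, and to 8.16% of all genes by edgeR. Without WT 3 edgeR gave it to 18 of the 61 genes, without WT 1 to 4, and without KO 1 or KO 3 to 0. Over the 61 genes the log2 fold changes had a median of 0.08, against 0.00 for all genes; by library totals these medians were -0.07 and -0.16. On CPM with TMM factors, all KO libraries were above all WT libraries in 10 of the 61 genes (7.4% of all genes). They were below them in 5 (6.44% of all genes). These counts, too, depend on the scaling. In 26 of the 61 genes all tested peaks lay on 1 side of 0, but peaks of 1 gene share its transcripts.

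Both calcium genes of the list had positive values. Atp2a2 had 21996, 31251 and 34465 CPM in WT 1 to WT 3 and 38522, 38326 and 42462 CPM in KO 1 to KO 3. All KO values were above all WT values, and WT 1 was the lowest. The log2 fold change was 0.44 ± 0.170 (SE; edgeR, unadjusted p = 0.0248, adjusted p = 0.571), and 0.27 without WT 1 (adjusted p = 0.720).

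Ryr2 had 7655, 9057 and 8291 CPM in WT 1 to WT 3 and 9266, 10718 and 11363 CPM in KO 1 to KO 3. The groups did not overlap on this CPM with TMM factors. By library totals alone they did, with KO 1 (3060 of 351313 reads) below WT 2 (2489 of 258093 reads). The log2 fold change was 0.33 ± 0.163 (SE; edgeR, adjusted p = 0.584). Of the 27 tested peaks of both genes, 26 had a positive log2 fold change, 9 of them at an unadjusted p under 0.05, with a median of 0.50. Of all 2338 tested peaks, 48.2% had a positive value and 9.45% an unadjusted p under 0.05. The 27 peaks belong to only 2 genes and share their transcripts and libraries, so they are not independent observations. Without WT 1, 23 of 26 were positive, with a median of 0.32. None passed the adjusted threshold in either fit.

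The 10 members of the chromatin and transcription list had mostly negative values. Of these, 9 had a negative log2 fold change and 1 a positive one (Zfp106, 0.40), with a median of -0.42, and none passed the adjusted threshold. Of their 46 tested peaks, 38 were negative and 8 positive, with a median of -0.56, and 4 had an unadjusted p under 0.05. Among all 2338 peaks 1210 values were negative, and 9.45% of the peaks were at that p. The 46 peaks share the transcripts of 10 genes and are not independent observations. Without WT 1, the median over the 10 genes was -0.11, with 8 negative and 2 positive values, and 31 of their peaks were negative and 12 positive, with a median of -0.21.

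Taf15, which encodes an RNA-binding protein of the transcription machinery, had 4646, 2569 and 1939 CPM in WT 1 to WT 3 and 1741, 2198 and 1923 CPM in KO 1 to KO 3. WT 1 was far above the others, and the groups overlapped. Its log2 fold change was -0.65 ± 0.296 (SE; edgeR, unadjusted p = 0.0526, adjusted p = 0.571), and -0.22 without WT 1. Ankrd11, which is in no list, had 1535, 728 and 670 CPM in WT 1 to WT 3 and 654, 617 and 545 CPM in KO 1 to KO 3, so all KO values were below all WT values. Its value was -0.70 ± 0.321 (SE; edgeR, unadjusted p = 0.0515, adjusted p = 0.571), again -0.22 without WT 1.

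Of the 10 contractile and Z-disc genes, 7 had a positive and 3 a negative log2 fold change, with a median of 0.07. By library totals 3 were positive and 7 negative, with a median of -0.09. Myh6 had 167450 ± 8046 CPM in Rpl3l+/+ and 177489 ± 24445 CPM in Rpl3l-/- hearts (SD, n = 3), and Myh7 had 12024 ± 714 and 12250 ± 1148 CPM. Both differences were within the spread between libraries, and the log2 fold changes of 0.08 and 0.03 were 0.12 and -0.02 without WT 1. Myh9, the non-muscle myosin IIA heavy chain, had the lowest value (-0.46 ± 0.216), with the groups apart at 1360 ± 227 and 993 ± 31.9 CPM (edgeR, adjusted p = 0.571).

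Other contractile genes had higher values than Myh9. Cmya5 had a value of 0.29 ± 0.192. Nexn, which encodes the actin-binding protein nexilin, had 0.15 ± 0.229, and Xirp2, which encodes an actin-binding protein of the intercalated disc, had 0.05 ± 0.172. Alpk3 had -0.05 ± 0.220 and Myh11, the smooth muscle myosin heavy chain, -0.15 ± 0.272. None of these passed the adjusted threshold, and their WT and KO libraries overlapped. Without WT 1, Nexn had 0.38 (edgeR, unadjusted p = 0.0304, adjusted p = 0.720), Alpk3 -0.23, Cmya5 0.24, Xirp2 0.08 and Myh11 -0.08.

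The 8 genes of spectrins, dystrophin and linkers had 7 positive values and 1 negative (Utrn, -0.18 ± 0.243), with a median of 0.11. By library totals 3 were positive and 5 negative, with a median of -0.04, and without WT 1 there were 5 positive and 3 negative values, with a median of 0.02. Macf1 had 0.02 ± 0.203, Syne1 0.03 ± 0.253, Dst 0.10 ± 0.157 and Sptbn1 0.12 ± 0.230. Without WT 1 these were 0.15, -0.0057, 0.05 and -0.12, and Utrn had 0.0064, so the signs of Syne1, Sptbn1 and Utrn rest on WT 1. Of the 3 metabolic genes all had positive values, from 0.20 to 0.38, but 1 of them was negative without WT 1, with a median of 0.10. Usp9x, of the list of ubiquitin and protein turnover, had -0.17 ± 0.269, and 0.05 without WT 1. Zc3h13, a subunit of the m6A writer complex and the only member of the 20 m6A writers, erasers and readers with 5 or more peaks, had -0.40 ± 0.279, and -0.08 without WT 1. No gene of these lists passed the adjusted threshold.

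**Figure D5:**
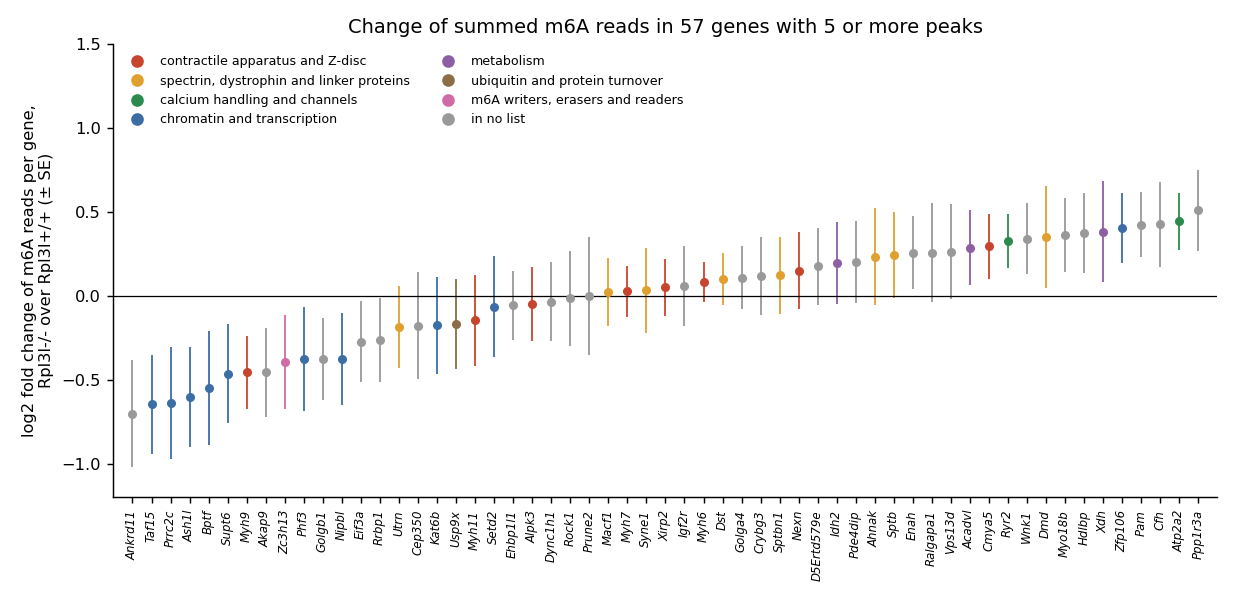
Log2 fold change of m6A reads summed per gene, Rpl3l-/- over Rpl3l+/+ (y axis, ± SE from edgeR, n = 3 per genotype), for 57 of the 61 genes in order of the value (x axis), coloured by gene list. Values run from -0.70 (Ankrd11) to 0.51 (Ppp1r3a), and no gene passed an adjusted p of 0.05.

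RNA-seq counts were available for 17 of the 61 genes, all on the plus strand, since the transcripts of the count table that matched GENCODE M21 lie on that strand. Among all 15394 transcripts tested, 2 passed the adjusted threshold (0.013% called), both of Rpl3l, and none was of the 17 genes. None of the 17 had an unadjusted p under 0.05 by edgeR or DESeq2, and 1 did without WT 3. Their log2 fold changes ran from -0.19 to 0.26 with a median of 0.07, which was -0.02 without WT 1 and -0.01 without KO 3. The smallest p-values were those of Prune2, Golgb1, which encodes the Golgi protein giantin, and Kat6b, a histone acetyltransferase.

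Prune2 had 29.0 ± 7.28 CPM in Rpl3l+/+ and 35.2 ± 5.51 CPM in Rpl3l-/- hearts (SD, n = 4; log2 fold change 0.26 ± 0.177, edgeR, adjusted p = 0.999). Golgb1 had 47.3 ± 6.14 and 54.3 ± 10.1 CPM (0.20 ± 0.150, adjusted p = 0.999), and Kat6b 17.9 ± 1.97 and 15.8 ± 3.53 CPM (-0.19 ± 0.184, adjusted p = 0.999). These values moved with single libraries: Prune2 had 0.17 without WT 1 and 0.41 without WT 3, Golgb1 0.12 without WT 1 and 0.05 without KO 3, and Kat6b -0.12 without WT 2 and -0.04 without KO 1. For Taf15 the RNA level was 63.9 ± 10.2 and 62.3 ± 6.39 CPM, a log2 fold change of -0.03 ± 0.136, beside -0.65 ± 0.296 for its m6A reads. For Ash1l, a histone methyltransferase, the values were 0.10 ± 0.190 in RNA and -0.60 ± 0.299 in m6A reads. These m6A values were -0.22 and -0.34 without WT 1, and the mice of both assays were not paired by the labels.

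Across the 17 genes, the median level of the peaks followed the RNA level per kilobase of transcript, with Spearman's rho of 0.868 and Pearson's r of 0.884 on log2 values. This is a description across genes, which are not replicates. Golga4 and Taf15 were at the upper end, with 52.9 and 30.5 RNA CPM per kilobase and peak medians of 468 and 675 TPM. Dmd (dystrophin) was at the lower end, with 1.05 RNA CPM per kilobase and 20.3 TPM. Of the 20 m6A writers, erasers and readers, 7 had a tested transcript. Their log2 fold changes were -0.19 to 0.24, 3 higher and 4 lower, and none passed the adjusted threshold (edgeR, smallest adjusted p = 0.999).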

How the data were processed

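Members and gene lists were chosen with earlier results of these data known. For m6A-seq, the authors immunoprecipitated heart RNA with an m6A antibody and deposited a raw read count and a TPM value per peak. Per the study's methods, reads were mapped with STAR (mm10, multiple mappings allowed), peaks found with HOMER, and reads counted with bedtools over coding-region peaks found in all 3 replicates of each genotype. Within a library the TPM equals a constant times count over peak length. RNA-seq counts per transcript were deposited without normalization; repeated lines of a transcript were used once, and depth was 3594700 to 22425300 reads. Versions are not given in the sources used here.

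Peaks with a mean count of at least 10 were tested with edgeR 4.0.16 (TMM, quasi-likelihood, Benjamini-Hochberg), also after summing per gene and, for shares, with diffSpliceDGE. DESeq2 1.42.0, limma 3.58.1 (log2(TPM + 1)), other filters, library totals, Ttn left out, a replicate block and leaving out each library were alternatives. All other steps used Python 3.11.15 and SciPy 1.17.1; fits were tested on simulated data. Samples were grouped by genotype labels. Genes were named if they had 10 or more peaks, were contractile or calcium genes, were among the 3 smallest p-values of a comparison or had the 3 widest or narrowest spreads; others were chosen after their values were seen, for a range or list. P-values cover the spread between these mice, and intervals of low counts are wide. Columns of the whole-series tables without a sample numbered 0. Values of some genes named by the rule are not reported here.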

Additional observations from a re-analysis of the deposited data

How the results depend on the processing

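Of the 61 genes, none was called in the 14 alternatives of the test per gene, none in the 12 of the test of shares, and of the 17 with RNA-seq none in 12. No peak of these genes was called in 12 of 13 alternatives; with the replicate block there was 1, and 8 among all peaks, against 0. The labels do not say whether the replicate numbers pair the mice. The deviations of libraries with the same number correlated at 0.27, 0.0224 and 0.223, and 4 of 6 libraries were closest to their own number. These values do not settle whether the mice were paired. With the block the spread kept its difference of -0.23 (exact paired permutation p = 0.25). Over all alternatives that difference was -0.33 to -0.07, and -0.33 to -0.14 with 1 library left out. DESeq2 called 11 RNA-seq transcripts in all, against 2. With 1 library left out, all genes called by share numbered 0 to 1, the 1 without WT 3. Without WT 3 the peaks of these genes at an unadjusted p under 0.05 numbered 81, against 26 (11 to 81 over the libraries left out) and the genes 18, against 1; the cause was not tested.

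The sign of small medians changed. By library totals, the median log2 fold change of the 361 peaks was -0.042, of the 61 genes -0.073, of the contractile genes -0.090, of the spectrin list -0.042 and of the ubiquitin list -0.019. By limma on log2(TPM + 1) it was -0.031 for the 61 genes, -0.082 for the contractile and -0.0023 for the spectrin list. With 1 library left out, the ubiquitin list ranged from -0.0097 (without WT 3) to 0.265, and the RNA-seq median from -0.017 (without WT 1) to 0.133, with -0.0093 without KO 3. Medians of the calcium, chromatin and metabolic lists kept their sign in all 14 alternatives, at 0.23 to 0.44, -0.62 to -0.11 and 0.10 to 0.46. Library totals moved the median of all genes from 0.00 to -0.16. Depth limited peaks of few reads, and 78 of 439 were not tested.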
